A study of Mus musculus with 7 samples.

Results

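The cells described here came from the uterine wall at the implantation site of pregnant mice at gestation day 18 and at gestation day 12. They were all annotated cells whose site was implantation-site myometrium/endometrium, whose day was 18 or 12 and whose experimental batch was 1 or 2: 31180 of the 107443 cells of the series, from 8 of its 28 specimens. Each day held 4 specimens, namely 1 Kdm6b cKO and 1 control mouse specimen in each of the 2 batches, so that every day 18 specimen had a day 12 specimen of the same genotype and batch. At day 18 the cKO specimens held 5153 cells in batch 1 and 2531 in batch 2, and the control specimens held 3733 and 3518. At day 12 the cKO specimens held 5367 and 4087 cells, and the control specimens held 2758 and 4033. The name cKO commonly abbreviates conditional knockout; in which cells the gene is deleted, and by what driver, is not given in the sources used here.

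At an implantation site, the uterine wall combines the endometrium, whose stroma decidualizes around the embryo, with the smooth muscle of the myometrium, and both are threaded by vessels and populated by immune cells such as macrophages and uterine natural killer cells. As pregnancy proceeds the decidua stops growing and thins, and the myometrium changes from a quiescent, growing muscle to one able to contract at labour. Kdm6b encodes a demethylase that removes a repressive methyl mark from histone H3.

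The measurements were a droplet single-cell RNA study of uterine tissue across pregnancy, in which cells of several specimens were tagged, pooled and assigned back to their specimen by the authors. What was analysed is the authors' annotation of each cell: its cluster, its cell-cycle call, its count of unique molecular identifiers (UMIs, each a captured RNA molecule) and its count of detected genes. The clusters carry numbers and no names, and the values of single genes were not analysed here, so neither the cell type of a cluster nor the level of Kdm6b could be read. A coarse cluster below is one of the authors' Louvain clusters at resolution 0.2, of which 18 held cells of these specimens, and a fine cluster is one at resolution 2, of which 60 did.

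Depth separated the batches more than the days. The median cell had 4015 UMIs in batch 1 and 8430 in batch 2. Within a batch the specimens of both days were mixed in the same pools, 2 pools in batch 1 and 3 in batch 2, so no pool held 1 day alone. Shares could still differ between the pools of 1 specimen, as given below for coarse cluster 4. Fits of single pools are given in the closing section. Among the 31180 cells 31071 barcodes were distinct, and 109 occurred in more than 1 pool. Coarse cluster 4, with a median of 545 UMIs per cell, took 13.9% to 24.9% of every batch 1 specimen and 0.570% to 1.62% of every batch 2 specimen. In the day 12 cKO specimen of batch 1 its share was 13.2% in one pool and 24.4% in the other. In coarse cluster 6 the specimen medians were 581 to 621 UMIs in batch 1 and 3436 to 11218 in batch 2. The same cluster number thus held cells of unlike depth in the 2 batches, which limits comparisons of the batches there. Nothing in the labels ties a specimen to a single mouse, and the p-values below measure the spread between these specimens.

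At day 18 some fine clusters of the wall held a different share of its cells than at day 12, while among coarse clusters few differences passed the test. Of 47 fine clusters tested, 15 changed their share of the specimen's cells, which is 31.9% of those tested; 7 were higher and 8 lower at day 18. The test was edgeR's quasi-likelihood test on cells per cluster with genotype and batch as terms, and a change is an adjusted p under 0.05 (Benjamini-Hochberg over the clusters tested). In the cKO specimens of batches 1 and 2 the 7 higher clusters together took 27.8% and 46.9% of the cells at day 18, against 7.55% and 18.9% at day 12. In the control specimens they took 32.5% and 41.0% at day 18, against 7.94% and 13.8% at day 12. The 8 lower clusters together took 3.27% to 5.67% of a specimen at day 18, against 21.6% to 25.4% at day 12. These sums describe the clusters that passed the test and are no test of their own.

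Fine cluster 0 rose most steadily. It took 5.69% and 10.2% of the cells of the cKO specimens of batches 1 and 2 at day 18, and 9.38% and 9.64% of the control specimens. At day 12 the same specimens in the same order had 0.969%, 1.13%, 1.20% and 1.98%. The lowest day 18 specimen was far above the highest day 12 specimen, and no counting interval of one day met one of the other (exact 95% binomial intervals, 5.07% to 6.35% for the lowest day 18 share and 1.58% to 2.46% for the highest day 12 share; they cover counting error only). The means were 8.71% ± 2.04 at day 18 and 1.32% ± 0.453 at day 12 (SD, n = 4 each), a log2 difference of 2.75 (SE 0.38, edgeR adjusted p = 9.46e-05), and the difference stayed between 2.60 and 2.87 when any 1 specimen was left out.

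Fine clusters 9 and 25, both nearly all within coarse cluster 5, fell at day 18. Cluster 9 took 1.63% and 1.42% of the cKO specimens and 1.45% and 0.881% of the control specimens at day 18, against 7.77%, 4.70%, 6.24% and 7.84% at day 12, again with no overlap between days. Its log2 difference was -2.32 (SE 0.39, edgeR adjusted p = 0.000494). Cluster 25 took 0.621% and 1.22% of the cKO specimens and 0.375% and 0.540% of the control specimens at day 18, against 3.37%, 1.91%, 3.30% and 3.00% at day 12. Its log2 difference was -2.16 (SE 0.45, edgeR adjusted p = 0.00269). The cKO specimens of batch 2 had the smallest gap between the days in both clusters. Clusters 0, 9 and 25 were the calls that passed the threshold in all 8 fits with 1 specimen left out.

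Coarse cluster 5 as a whole fell with them and was the clearest change among the coarse clusters. It took 3.38% and 4.15% of the cells of the cKO specimens of batches 1 and 2 at day 18 and 3.21% and 2.50% of the control specimens, against 12.6%, 8.10%, 11.46% and 12.4% at day 12. The means were 3.31% ± 0.676 at day 18 and 11.1% ± 2.08 at day 12 (SD, n = 4 each), the log2 difference was -1.76 (SE 0.28, edgeR adjusted p = 0.0016), and it passed with any 1 specimen left out. Only 2 of the 17 coarse clusters tested changed, 11.8% of them, both lower at day 18. The second, coarse cluster 15, held 0.232% ± 0.0664 of the cells at day 18 and 0.687% ± 0.358 at day 12 (SD, n = 4 each; log2 -1.56, SE 0.44, edgeR adjusted p = 0.0486). Its day 12 share in the control specimen of batch 1 was 0.181%, inside the day 18 range, and the call ended in 6 of the 8 fits with 1 specimen left out; it was kept without the day 12 cKO specimen of batch 2 or the day 12 control specimen of batch 1, and reached an adjusted p of 0.147 without the day 12 control specimen of batch 2.

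The 5 largest coarse clusters did not pass. Coarse cluster 0 averaged 31.5% ± 11.001 at day 18 and 24.5% ± 17.02 at day 12 (log2 0.57, SE 0.28, edgeR adjusted p = 0.164), with a day 12 range of 10.8% to 46.3% that contains every day 18 value. Coarse clusters 1 and 2 averaged 17.002% ± 4.32 and 12.4% ± 3.20 at day 18, against 14.4% ± 2.75 and 10.6% ± 3.98 at day 12 (edgeR adjusted p = 0.429 for both). Coarse cluster 4 averaged 10.3% ± 11.49 at day 18 and 8.74% ± 9.54 at day 12, with the batches rather than the days apart (edgeR adjusted p = 0.295). Coarse cluster 3 averaged 9.54% ± 2.74 at day 18 and 10.7% ± 5.75 at day 12 (log2 -0.08, SE 0.53, edgeR adjusted p = 0.931), and its direction turned in 9 of the alternative fits.

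Within coarse cluster 3 some fine clusters rose and another fell between the days. Fine cluster 15 took 4.54% and 11.1% of the cells of the cKO specimens of batches 1 and 2 and 2.30% and 2.84% of the control specimens at day 18, against 1.10%, 0.171%, 0.943% and 0.322% at day 12. Its log2 difference was 2.97 (SE 0.63, edgeR adjusted p = 0.00269). The cKO specimen of batch 2 stood highest at day 18 and lowest at day 12. The call ended without the day 12 control specimen of batch 2 (adjusted p = 0.0866), and the difference was 2.28 without the day 12 cKO specimen of batch 2. Fine cluster 17 went the other way, with 1.26%, 0.435%, 0.375% and 1.51% at day 18 in the same order of specimens, against 10.1%, 0.759%, 8.30% and 7.69% at day 12. Its log2 difference was -2.67 (SE 0.65, edgeR adjusted p = 0.00572). Here the days overlapped through the day 12 cKO specimen of batch 2, whose 0.759% lay inside the day 18 range. The call ended without the day 12 control specimen of batch 2 (adjusted p = 0.149) and without the day 18 cKO specimen of batch 2 (0.0864), and the difference was -2.01 and -2.04 without the batch 1 cKO specimen of day 12 or the batch 1 control specimen of day 18, and -3.29 without the batch 2 cKO specimen of day 12 or the batch 2 control specimen of day 18. Fine cluster 35 took 1.11%, 0.593%, 3.64% and 0.341% at day 18, against 0.261%, 0.0979%, 0.181% and 0.248% at day 12 (log2 2.43, SE 0.55, edgeR adjusted p = 0.0042). The control specimen of batch 1 was more than 3 times the next highest, and without it the log2 difference was 1.77; the call ended without the day 18 cKO specimen of batch 2 (adjusted p = 0.0627).

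Several fine clusters of coarse cluster 0 moved in opposite directions beside the rise of cluster 0. Fine cluster 13 took 0.757%, 0.751%, 0.375% and 0.426% of the cells at day 18, against 1.53%, 10.5%, 0.906% and 2.16% at day 12, with the cKO specimen of batch 2 far above the others at day 12. Its log2 difference was -2.17 (SE 0.50, edgeR adjusted p = 0.00432), and the call ended without the day 18 cKO specimen of batch 2 (adjusted p = 0.0627). Fine cluster 4 averaged 8.19% ± 3.55 at day 18 and 3.88% ± 3.25 at day 12 (log2 1.45, SE 0.42, edgeR adjusted p = 0.0206), and fine cluster 29 averaged 1.55% ± 1.24 at day 18 and 0.656% ± 0.309 at day 12 (log2 1.06, SE 0.39, edgeR adjusted p = 0.0486). In both clusters all 4 pairs had more at day 18, and the groups overlapped because the batch 2 specimens stood above those of batch 1 at each day. Fine cluster 5, one of the 5 largest, averaged 3.27% ± 2.17 at day 18 and 8.002% ± 8.01 at day 12 and did not pass (log2 -0.94, SE 0.43, edgeR adjusted p = 0.108); its day 12 share in the cKO specimen of batch 2 was 19.5%, and in the other specimens of that day 2.50% to 7.51%. Fine cluster 1, the largest, which makes up nearly all of coarse cluster 4, had 9.95% ± 11.4 at day 18 and 8.53% ± 9.58 at day 12 (edgeR adjusted p = 0.435).

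Of the remaining calls, fine cluster 3, the largest part of coarse cluster 1 at day 18, took 4.58% and 9.01% of the cKO specimens and 8.81% and 10.8% of the control specimens at day 18, against 2.09%, 6.51%, 2.43% and 3.97% at day 12 (log2 1.21, SE 0.39, edgeR adjusted p = 0.0293). Fine cluster 12, mostly within coarse cluster 2, lay between 3.30% and 3.83% in all day 18 specimens and between 1.31% and 2.15% in all day 12 specimens (log2 1.18, SE 0.36, edgeR adjusted p = 0.0258). Fine cluster 34, also of coarse cluster 2, averaged 0.446% ± 0.218 at day 18 and 1.41% ± 0.929 at day 12 (log2 -1.53, SE 0.53, edgeR adjusted p = 0.0413), and its difference was -0.91 without the day 12 control specimen of batch 1. Fine clusters 31, 38 and 39 each averaged under 0.302% at day 18 and 0.748%, 0.705% and 0.613% at day 12, with log2 differences of -1.29, -1.52 and -1.42 (edgeR adjusted p = 0.0475, 0.0293 and 0.0475). In batch 1 control specimens cluster 31 had 0.214% at day 18 and 0.218% at day 12, so that pair hardly differed. Of the same pairs, the batch 1 control pair in cluster 38 and the batch 1 cKO pair in cluster 39 had slightly more at day 18. Cluster 38 lies almost wholly within coarse cluster 15.

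Most of these calls lay near the threshold and ended in several fits with 1 specimen left out, while their direction was kept. Each of the 8 calls for clusters 3, 4, 12, 29, 31, 34, 38 and 39 ended in at least 4 of the 8 fits with 1 specimen left out. That for cluster 29 ended in every one (adjusted p = 0.0623 to 0.147). Those for clusters 3, 31, 34 and 39 ended in 6, with an adjusted p of up to 0.134, 0.183, 0.205 and 0.205, those for clusters 4 and 12 in 5, with up to 0.0933 and 0.12, and that for cluster 38 in 4, with up to 0.172. The day 12 control specimen of batch 2 and the day 18 control specimen of batch 2 ended all 8 of them. Over all 47 fine clusters, 23 moved in 1 direction in all 4 pairs, 13 of them among the 15 called, and in 8 the days did not overlap at all, 7 of them among those called.

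**Figure D1:**
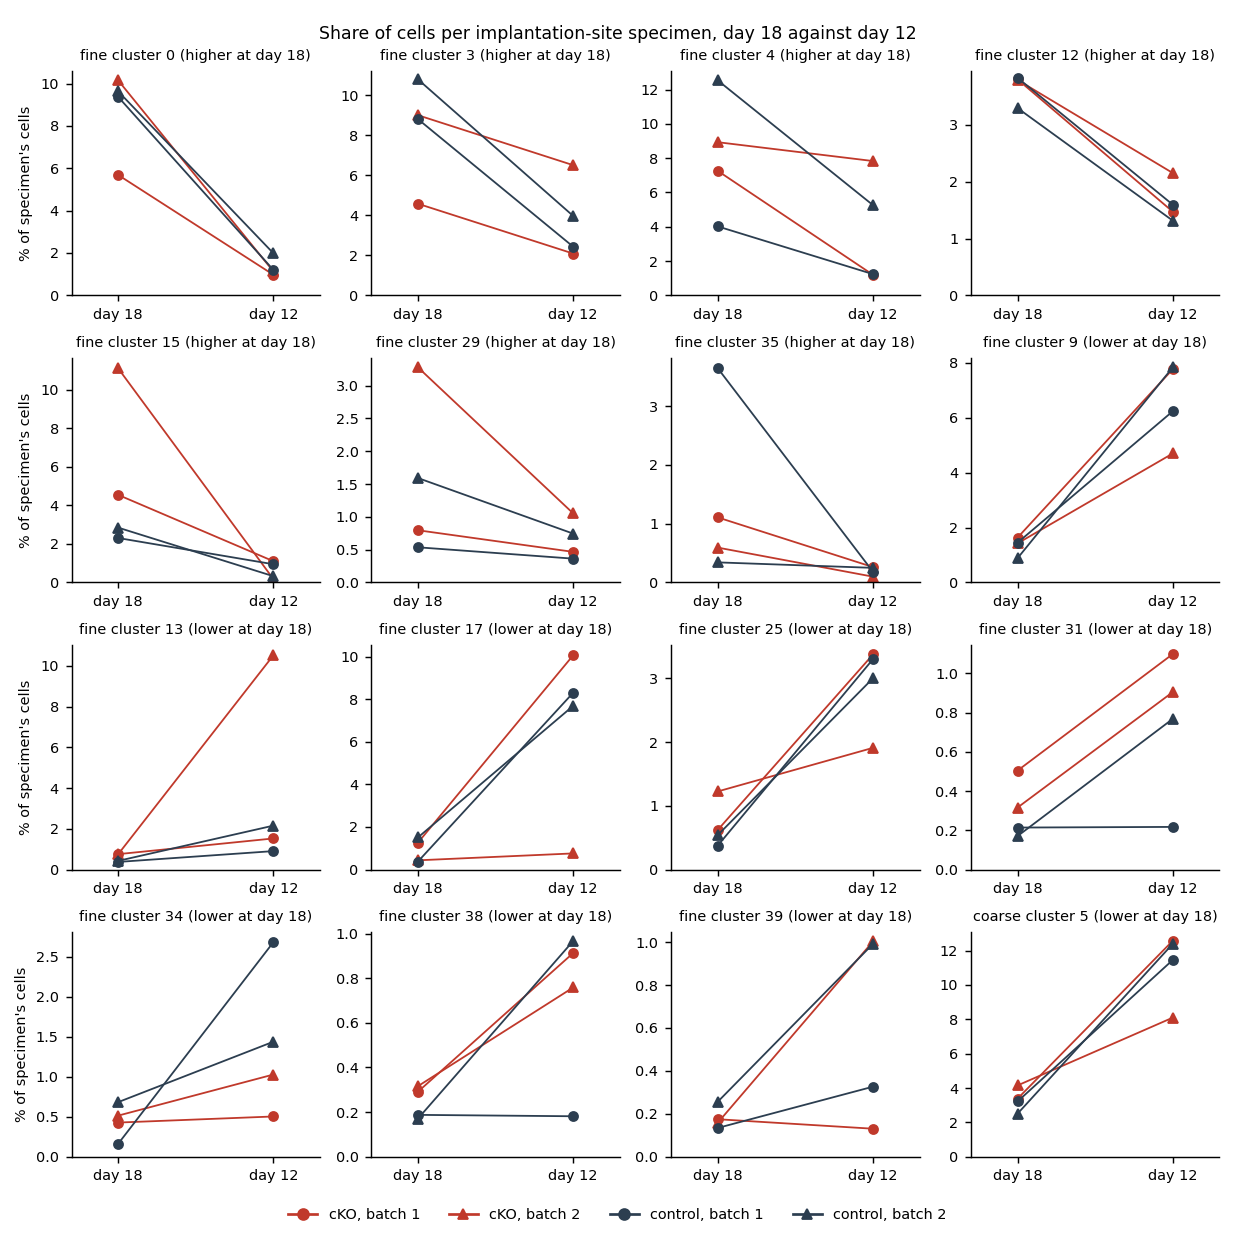
Share of each specimen's cells (vertical axes, %) in the 15 fine clusters that changed and in coarse cluster 5, with day 18 left and day 12 right; each line joins specimens of the same genotype (colour) and batch (marker). Cluster 0 lies between 5.69% and 10.2% at day 18 and between 0.969% and 1.98% at day 12, while in clusters 13, 15, 17 and 35 a single specimen stands far from the rest.

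Shares of the whole specimen depend on every other cluster. The share of a fine cluster inside its own coarse cluster depends only on the fine clusters beside it there. A rise of one still lowers the others, so these changes are not independent of each other. Taken that way, 13 of 37 fine clusters in 9 coarse clusters changed (35.1% of those tested, edgeR quasi-likelihood test with the coarse cluster's cells as offset, adjusted p under 0.05), 7 higher and 6 lower at day 18. In coarse cluster 3, fine cluster 15 made up 44.4% and 84.4% of the cells in the cKO specimens of batches 1 and 2 and 30.4% and 38.8% in the control specimens at day 18, against 7.58%, 8.05%, 7.03% and 2.54% at day 12 (log2 2.94, SE 0.39, edgeR adjusted p = 0.00125). Fine cluster 17 made up 12.4%, 3.30%, 5.00% and 20.5% at day 18, against 69.4%, 35.6%, 61.9% and 60.5% at day 12 (log2 -2.48, SE 0.54, edgeR adjusted p = 0.00895). The days did not overlap for either cluster. The day 12 cKO specimen of batch 2, where coarse cluster 3 was small, shared the direction on this scale. Fine cluster 35 made up 48.6% of coarse cluster 3 in the control specimen of batch 1 at day 18, and 4.50% to 10.9% in the others of that day, against 1.35% to 4.598% at day 12 (edgeR adjusted p = 0.0243).

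In coarse cluster 0, fine cluster 0 made up 29.7% ± 11.2 at day 18 and 7.20% ± 3.59 at day 12 (SD, n = 4 each; log2 2.17, SE 0.35, edgeR adjusted p = 0.00235). Fine cluster 13 made up 1.92% ± 0.895 at day 18 and 13.04% ± 7.14 at day 12 (log2 -2.75, SE 0.33, edgeR adjusted p = 0.00116), and fine cluster 5 made up 9.73% ± 3.62 at day 18 and 28.3% ± 9.27 at day 12 (log2 -1.51, SE 0.30, edgeR adjusted p = 0.00779). Cluster 5 had not passed as a share of all cells and did so here, with 6.22% to 14.7% at day 18 and 22.5% to 42.0% at day 12. In coarse cluster 1, fine cluster 3 rose to 48.1% ± 4.04 at day 18, against 25.3% ± 10.7 at day 12, and fine cluster 24 fell to 8.36% ± 1.94 at day 18, against 18.8% ± 3.73 at day 12 (edgeR adjusted p = 0.0253 and 0.00895). In coarse cluster 5, which shrank, fine cluster 41 made up 18.4%, 21.0%, 30.0% and 26.1% at day 18, against 3.41%, 7.55%, 6.65% and 5.600% at day 12 (log2 2.06, SE 0.31, edgeR adjusted p = 0.00187). As a share of all cells cluster 41 averaged 0.842% ± 0.202 at day 18 and 0.650% ± 0.150 at day 12. On that scale it did not pass (log2 0.39, SE 0.39, edgeR adjusted p = 0.428). Within coarse cluster 5, clusters 9 and 25 gave log2 differences of -0.56 (SE 0.23) and -0.40 (SE 0.30) and did not pass (edgeR adjusted p = 0.091 and 0.337). In coarse cluster 10, fine cluster 47 made up 9.93% ± 5.72 at day 18 and 27.6% ± 2.44 at day 12 (log2 -1.42, SE 0.40, edgeR adjusted p = 0.0253). Clusters 12 and 4 rose and cluster 34 fell inside their coarse clusters as well. As shares of all cells clusters 24 and 47 did not pass (edgeR adjusted p = 0.0846 and 0.206).

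Among these 13, the calls for clusters 0, 5, 13, 15 and 41 passed in all 8 fits with 1 specimen left out. Those for clusters 17 and 24 ended without the day 12 cKO specimen of batch 1 (adjusted p = 0.0505 each), and that for cluster 12 ended in 3 fits. Those for clusters 3, 4, 34, 35 and 47 ended in 4 to 6. For cluster 35 the log2 difference of 2.78 was 1.67 without the day 18 control specimen of batch 1 and 2.14 without the day 12 control specimen of batch 1, and for cluster 17 it was -3.22 without the day 18 control specimen of batch 2.

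**Figure D2:**
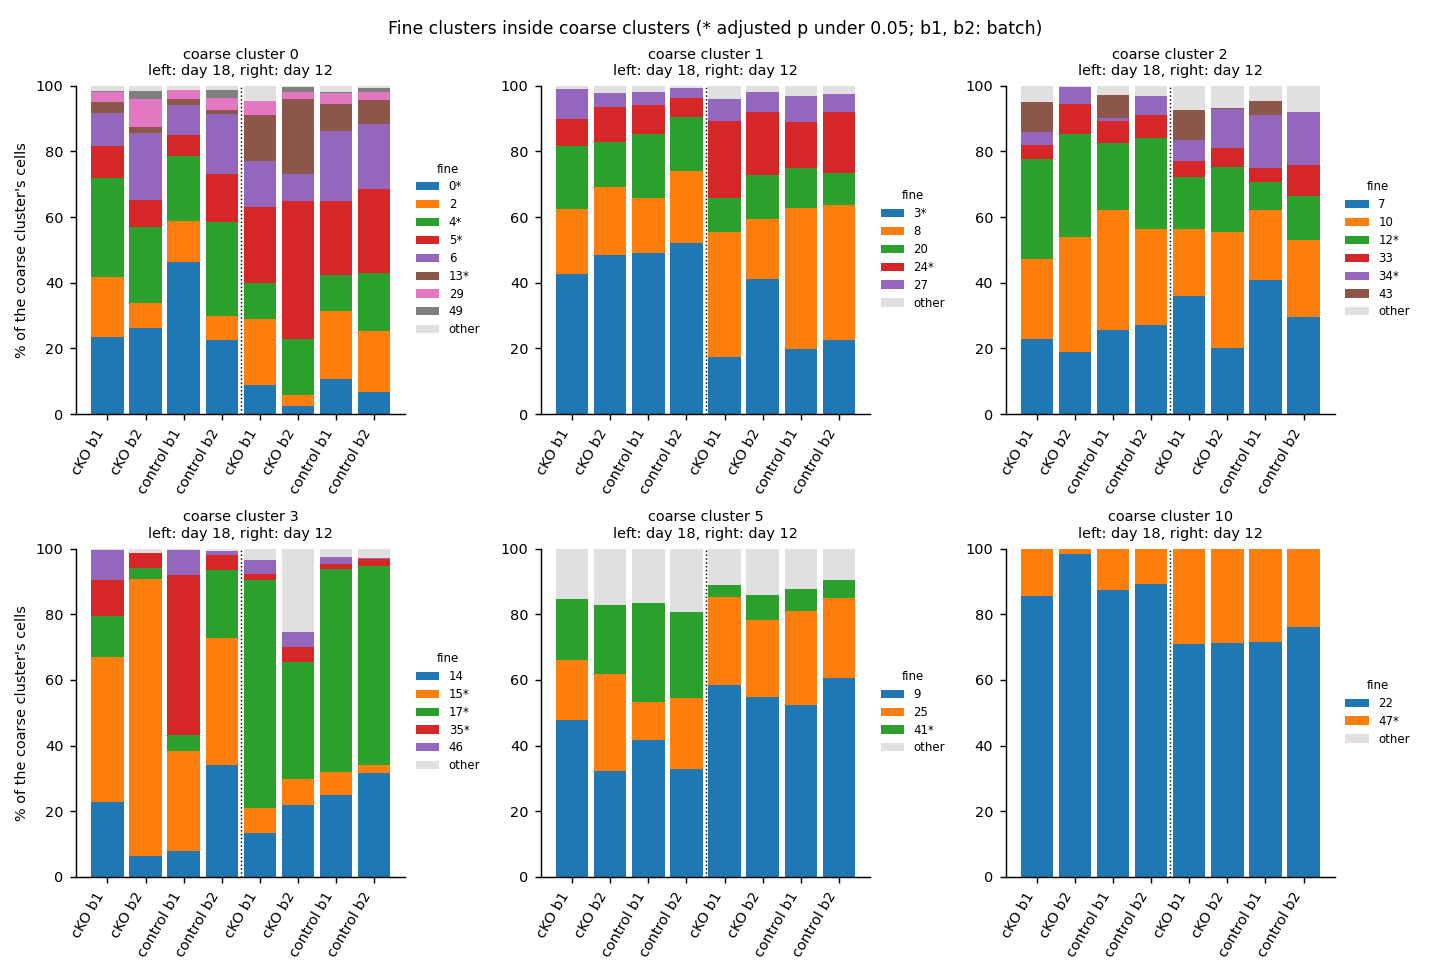
Make-up of 6 coarse clusters, as the % of the coarse cluster's cells in each fine cluster (stacked bars); day 18 specimens stand left of the dotted line and day 12 specimens right of it, and an asterisk marks fine clusters with an adjusted p under 0.05. In coarse cluster 3, fine cluster 17 takes 35.6% to 69.4% of every day 12 bar and 3.30% to 20.5% of every day 18 bar.

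The 2 batches shared no specimens and moved mostly the same way. Estimated in each batch from one fit, the day difference had the same sign in 38 of the 47 fine clusters (Pearson r = 0.63, Spearman rho = 0.67 across clusters, which share specimens and are not independent) and in 14 of the 17 coarse clusters (r = 0.54, rho = 0.40). For fine cluster 0 the log2 difference was 2.76 (SE 0.62) in batch 1 and 2.73 (SE 0.61) in batch 2, and for fine cluster 9 it was -2.18 (SE 0.60) in batch 1 and -2.47 (SE 0.62) in batch 2. Coarse cluster 5 gave -1.86 (SE 0.38) in batch 1 and -1.64 (SE 0.39) in batch 2. Cluster 25 gave -2.75 (SE 0.64) in batch 1 and -1.56 (SE 0.63) in batch 2. All 15 called fine clusters had 1 sign in both batches, which the call over both batches favours, and so had 23 of the 32 others.

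The sizes differed more, though no difference between the batches passed the threshold. Fine cluster 15 rose by 1.67 (SE 0.62) on the log2 scale in batch 1 and by 4.55 (SE 0.72) in batch 2, a difference of 2.88 (SE 0.91, edgeR adjusted p = 0.0896). Fine cluster 13 gave -1.15 (SE 0.63) in batch 1 and -3.16 (SE 0.66) in batch 2, and fine cluster 4 gave 2.19 (SE 0.61) and 0.76 (SE 0.58). The edgeR test of the day-by-batch term called 0 of 47 fine clusters (0%; 2 at an unadjusted p under 0.05), and DESeq2 and limma also called 0 (3 unadjusted each). Among coarse clusters it called 0 of 17 (0%; 1 unadjusted), as did DESeq2 (0 unadjusted) and limma (1 unadjusted). The difference for cluster 15 had an SE of 0.91, and a p that misses the threshold does not show that the batches were alike. What size of batch difference these specimens could detect was not tested. Each batch alone, with 2 specimens a day, called 4 fine clusters in batch 1 and 5 in batch 2, all of them among the 15.

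**Figure D3:**
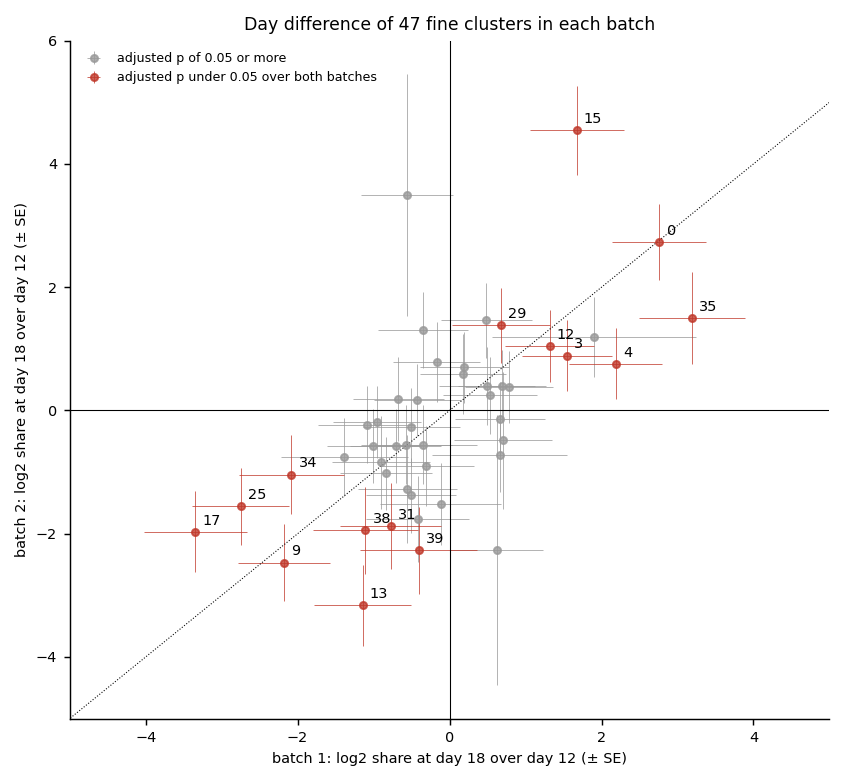
Log2 share at day 18 over day 12 for 47 fine clusters, in batch 1 (horizontal) and batch 2 (vertical), with standard errors as bars; clusters with an adjusted p under 0.05 over both batches are red and numbered, and the dotted line marks equal differences. Cluster 0 lies on the line (2.76 and 2.73), and cluster 15 is the called cluster farthest above it (1.67 and 4.55).

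Summed over all fine clusters, batch set specimens apart about as far as gestation day did. The distance between 2 specimens, taken as the % of cells that would have to change their fine cluster to make the specimens alike, was 32.1% to 41.2% between the days within a genotype and batch (median 36.1%, 4 pairs). Between the batches within a genotype and day it was 34.1% to 53.2% (median 36.3%, 4 pairs), and between cKO and control within a batch and day 16.6% to 31.1% (median 23.4%, 4 pairs). Without fine cluster 1, whose median cell had 544 UMIs, the day distances were 37.1% to 41.3% (median 39.2%) and the batch distances 24.7% to 48.7% (median 29.7%). Over coarse clusters every batch distance exceeded every day distance, with 29.2% to 47.4% between the batches and 18.7% to 21.9% between the days. On every count the largest batch distance joined the day 12 cKO specimens. These are descriptions of 8 specimens, and the distances share specimens.

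All 15 called fine clusters had 1 sign in both genotypes, which the call over both genotypes favours, and so had 26 of the 32 others. The sign was the same in cKO and control specimens for 41 of 47 fine clusters (r = 0.79, rho = 0.77) and 14 of 17 coarse clusters (r = 0.63, rho = 0.68). For fine cluster 0 the log2 difference was 2.87 (SE 0.51) in cKO specimens and 2.63 (SE 0.51) in control specimens. Cluster 9 gave -2.003 (SE 0.52) in cKO and -2.65 (SE 0.53) in control specimens, and cluster 25 gave -1.56 (SE 0.58) in cKO and -2.78 (SE 0.61) in control specimens. Coarse cluster 5 gave -1.44 (SE 0.44) in cKO and -2.07 (SE 0.45) in control specimens. Sizes were less alike elsewhere: the called fine cluster 34 gave -0.63 (SE 0.70) in cKO and -2.47 (SE 0.74) in control specimens. Coarse cluster 3, not called, had opposite signs, 0.72 (SE 0.60) in cKO and -0.81 (SE 0.57) in control specimens. The edgeR test of the day-by-genotype term called 0 of 47 fine clusters (0%; 1 unadjusted) and 0 of 17 coarse clusters (0%; 0 unadjusted), and DESeq2 and limma also called 0 of each (1 unadjusted each among fine and 0 among coarse clusters). With 2 specimens per genotype and day these intervals are wide, and a p that misses the threshold does not show that the genotypes were alike. Leaving out single day 12 specimens brought calls for coarse clusters 3, 10 and 11, in fits that left 1 specimen in a group. For coarse cluster 3 the day-by-genotype difference was 3.30 on the log2 scale without the cKO specimen of batch 1, and 1.54 with all specimens. Its day-by-batch difference was 3.13 without the control specimen of batch 2, and 1.21 with all specimens. For coarse clusters 10 and 11 the day-by-genotype differences were -1.61 and 3.12 without the day 12 cKO specimen of batch 2.

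Specimens of days 14 and 16 were collected in batch 1 alone, 1 per genotype and day, and are given without a test. Cluster 0 in control specimens was 1.20%, 2.34%, 8.20% and 9.38% at days 12, 14, 16 and 18. In cKO specimens it was 0.969%, 1.74%, 1.56% and 5.69%, so at day 16 the 2 genotypes differed more than at any other of these days. Cluster 9 in cKO specimens was 7.77%, 8.23%, 1.96% and 1.63% at days 12, 14, 16 and 18, and in control specimens 6.24%, 3.80%, 0.874% and 1.45%. Both genotypes had most of the fall of cluster 9 behind them by day 16. Cluster 25 was 3.37%, 2.03%, 0.401% and 0.621% in cKO specimens and 3.30%, 0.579%, 0.524% and 0.375% in control specimens. Cluster 17 was 10.1%, 2.98%, 3.73% and 1.26% in cKO specimens and 8.30%, 2.36%, 0.367% and 0.375% in control specimens. For cluster 15 day 18 was not the peak: control specimens had 0.943%, 7.12%, 6.96% and 2.30% and cKO specimens 1.10%, 2.13%, 5.29% and 4.54% at days 12, 14, 16 and 18. Cluster 35 in control specimens was 0.181%, 0.300%, 2.13% and 3.64%, and in cKO specimens it was 0.261%, 0.205%, 0.401% and 1.11%.

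Batch 3 held 2 further day 12 implantation-site specimens and none of day 18. Among the 15 fine clusters that changed, both of these specimens lay beyond the day 18 range on the day 12 side in 9. In 4 clusters 1 of them did, and in 2 neither did. The 15 were picked for a difference between the days, and the call set which side was counted. The other fine clusters were not counted this way, so how often such positions arise without a call was not tested. Cluster 0 was 0.215% in the cKO specimen and 0.517% in the control specimen, below every other day 12 specimen. Cluster 9 was 3.28% and 2.74%, between the days. Cluster 3 was 7.97% in the cKO and 6.26% in the control specimen and cluster 4 was 8.40% and 8.20%, all inside the range of day 18. Coarse cluster 5 was 5.82% in the cKO and 4.63% in the control specimen, above every day 18 specimen and below every day 12 specimen of batches 1 and 2. With these specimens added and no term for batch, 7 fine clusters were called, 6 of them among the 15, and no coarse cluster (edgeR; coarse cluster 5 adjusted p = 0.0841).

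**Figure D4:**
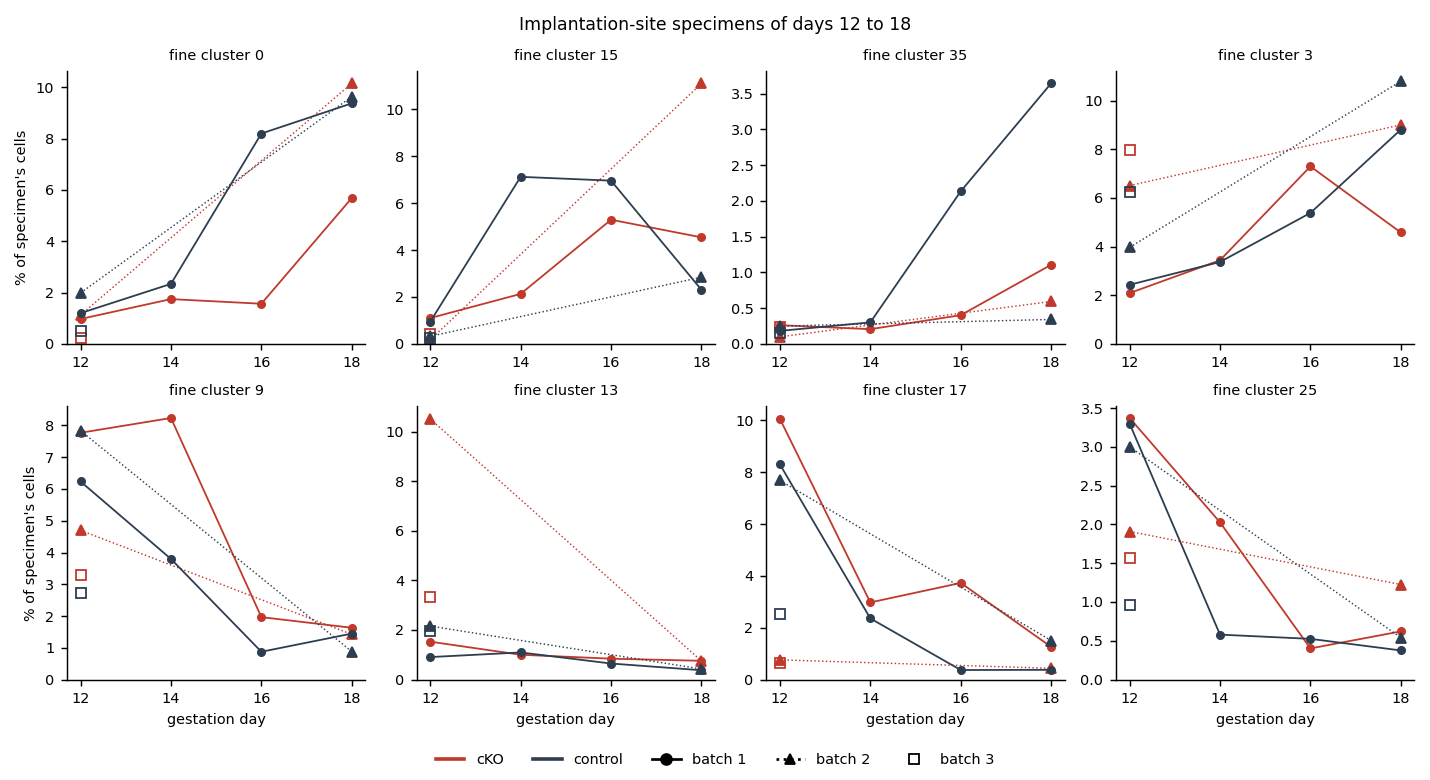
Share of each implantation-site specimen's cells (vertical axes, %) in 8 fine clusters at gestation days 12 to 18 (horizontal axes), with cKO in red and control in dark blue; circles are batch 1, triangles batch 2 and open squares batch 3, 1 specimen per point. Cluster 0 in control specimens of batch 1 reads 1.20%, 2.34%, 8.20% and 9.38%, and the batch 3 day 12 specimens lie at 0.215% and 0.517%.

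Batch 2 also held inter-implantation sites, the stretches of uterus between embryos, at both days. The day difference at implantation sites was set against that at inter-implantation sites in one fit of the 8 batch 2 specimens of both sites. Whether specimens of the 2 sites came from the same mice is not stated in the labels, and the fit treated them as separate. The edgeR test of the day-by-site term called 0 of 45 fine clusters (0%; 1 unadjusted) and 0 of 16 coarse clusters (0%; 0 unadjusted). DESeq2 called 0 of each (4 and 1 unadjusted) and limma 0 of each (2 and 0 unadjusted). Cluster 0 rose at both sites: inter-implantation specimens held 6.14% in the cKO and 29.6% in the control at day 18, against 1.32% and 3.28% at day 12, and the difference between sites was 0.02 on the log2 scale (SE 1.09, edgeR adjusted p = 0.987). Cluster 15 had the lowest unadjusted p: it was 0.641% and 0.529% in the inter-implantation specimens of day 18, against 0.259% and 0.396% at day 12, and its log2 difference was larger at implantation sites by 3.85 (SE 1.37, edgeR adjusted p = 0.752). Standard errors were above 1 for both clusters, and a p that misses the threshold does not show that the sites were alike. What size of site difference these specimens could detect was not tested.

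Cells of several coarse clusters yielded fewer RNA molecules at day 18. The median UMI count per cell was lower in 4 of 10 coarse clusters with at least 20 cells in every specimen (40% of those tested, limma on log2 medians with genotype and batch as terms, adjusted p under 0.05), and higher in none. In coarse cluster 3 the medians were 2589 and 1451 UMIs in the cKO specimens of batches 1 and 2 and 2636 and 4785 in the control specimens at day 18, against 15777, 5994, 14376 and 19659 at day 12. No day 18 specimen reached the lowest day 12 value, and the ratio of day 18 to day 12 was 0.205 (log2 -2.28, SE 0.37, limma adjusted p = 0.00266); on mean log2 UMIs in place of medians it was -1.63. In coarse cluster 2 the medians were 3254 and 3502 in cKO specimens and 3624 and 4917 in control specimens at day 18, against 5227, 8148, 6564 and 8696 at day 12 (ratio 0.538, limma adjusted p = 0.00147). Coarse clusters 10 and 7 had ratios of 0.653 and 0.764 (limma adjusted p = 0.0113 and 0.0416). The call for cluster 10 ended without the day 18 control specimen of batch 1 (adjusted p = 0.054), and that for cluster 7 ended in 6 of the 8 fits with 1 specimen left out and with means in place of medians (0.0978). The same 4 coarse clusters had fewer detected genes (40% of 10 tested, limma): coarse cluster 3 averaged 882 ± 327 genes per cell at day 18 and 3276 ± 738 at day 12, and coarse cluster 2 averaged 1732 ± 207 at day 18 and 2525 ± 262 at day 12 (SD of specimen medians, n = 4 each).

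Within fine clusters the UMI differences went both ways, and no fine cluster of coarse cluster 3 had enough cells to be tested. Of 19 fine clusters tested, 3 had more UMIs at day 18 and 5 had fewer (42.1%, limma adjusted p under 0.05). Those with more were all of coarse cluster 0: cluster 0 with a ratio of 1.24, cluster 2 with 1.20 and cluster 4 with 1.22. Cluster 0 held a median of 9171 and 9189 UMIs in cKO specimens and 8844 and 10123 in control specimens at day 18, against 6868, 9070, 7101 and 7284 at day 12. Its batch 2 cKO pair hardly differed, and its call ended in 6 of the 8 fits with 1 specimen left out, up to an adjusted p of 0.0851. Clusters 2 and 4 lost their calls without the day 12 or the day 18 control specimen of batch 2 (adjusted p = 0.0511 and 0.0598 in both clusters). Clusters 7 and 10, both of coarse cluster 2, had ratios of 0.641 and 0.726, cluster 8 of coarse cluster 1 had 0.8002, cluster 22 of coarse cluster 10 had 0.691 and cluster 41 of coarse cluster 5 had 0.821. Those for clusters 7, 8, 10 and 41 passed in all 8 fits with 1 specimen left out, and that for cluster 22 ended in 5. Detected genes changed in 6 of the 19 (31.6%, limma), 1 higher and 5 lower.

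The fine clusters that rose and fell within coarse cluster 3 differ widely in depth. Cluster 17, lower at day 18 than at day 12, had a median of 21780 UMIs and 4291 genes per cell. Cluster 15, higher at day 18 than at day 12, had 1261 UMIs and 489 genes. Cluster 35 had 8945 UMIs. Re-weighting each day 18 specimen to the fine make-up of its day 12 counterpart, over the fine clusters both held, left a mean log2 UMI difference in coarse cluster 3 of 0.19 ± 0.17, where the unweighted one was -1.63 ± 0.32 (SD over 4 pairs). The re-weighting covered as little as 65.5% of the day 12 cells of a specimen. In coarse cluster 2 the difference was -0.50 ± 0.11 re-weighted and -0.80 ± 0.19 unweighted, lower in 4 of 4 pairs both ways. In coarse cluster 10 it was -0.53 ± 0.17 and -0.62 ± 0.18. The fine clusters differ in depth themselves, so holding their make-up fixed takes out such differences by construction and does not locate their source. The re-weighting was chosen after the clusters had been compared and carries no test.

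The share of UMIs from mitochondrial genes, a common measure of cell stress or damage, moved with the day in some of the same clusters. Its median was higher at day 18 in coarse clusters 2, 5, 7 and 9, 4 of 10 tested (40%, limma). In coarse cluster 2 it was 3.95% ± 0.227 at day 18 and 3.39% ± 0.275 at day 12, and in coarse cluster 5 2.36% ± 0.257 at day 18 and 2.04% ± 0.206 at day 12. In coarse cluster 7 it was 4.22% ± 0.426 at day 18 and 3.24% ± 0.292 at day 12, and in coarse cluster 9 3.10% ± 0.326 at day 18 and 2.70% ± 0.290 at day 12 (SD, n = 4 each). All 4 pairs were higher at day 18 in each of them. Without the day 18 cKO specimen of batch 1 none of the 4 passed (limma adjusted p = 0.0508 for clusters 2, 5 and 9 and 0.0749 for cluster 7). The call for cluster 7 ended in 6 of the 8 fits with 1 specimen left out. The share from ribosomal protein genes was lower at day 18 in coarse clusters 1, 2, 3 and 9, 4 of 10 tested (40%, limma), most in cluster 3 with 13.98% ± 2.45 at day 18 and 22.7% ± 3.38 at day 12 (limma adjusted p = 0.00212). With 1 specimen left out, the calls for clusters 1 and 9 ended in 5 and 6 of the 8 fits. Whether cell damage has a part in the lower UMIs or in the fall of coarse cluster 5 was not tested.

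Fewer cells were called in the G2M phase, the stretch of the cell cycle around mitosis, at day 18. Per specimen the G2M share was 20.1% and 8.22% in the cKO specimens of batches 1 and 2 and 16.3% and 6.14% in the control specimens at day 18, against 23.8%, 11.03%, 23.6% and 14.03% at day 12. It was lower at day 18 in 4 of 4 pairs, with a mean difference of -5.41 percentage points. The exact permutation test that exchanges days within pairs gave p = 0.125 (two-sided), the smallest that 16 arrangements allow, and 0.625 adjusted over the 5 specimen-level measures. The share called S, the phase of DNA synthesis, was 11.9% ± 3.51 at day 18 and 12.1% ± 3.30 at day 12 (SD, n = 4 each, exact permutation p = 0.875). In coarse cluster 4, whose median cell had 545 UMIs, 32.1% to 35.3% of the cells of batch 1 specimens were called G2M. In batch 2 specimens it was 8.70% to 30.4%. The specimen-level G2M shares of batch 1 thus include calls from cells of few UMIs. Phase calls and gene counts follow the depth of a cell, and without gene values cells could not be thinned to one depth. The part of depth in these calls was not tested.

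Within coarse clusters the G2M share was lower at day 18 in 4 of 10 (40% of those tested, edgeR quasi-likelihood test with the cluster's cells as offset, adjusted p under 0.05) and higher in none. In coarse cluster 3 it was 21.3% and 9.31% in the cKO specimens of batches 1 and 2 and 20.4% and 5.43% in the control specimens at day 18, against 31.9%, 32.2%, 36.5% and 33.0% at day 12 (log2 -1.31, SE 0.30, edgeR adjusted p = 0.00712). The 4 day 12 specimens lay close together and above every day 18 specimen, and the call passed in all 8 fits with 1 specimen left out. In coarse cluster 10 it was 22.3%, 3.33%, 19.1% and 13.8% at day 18, against 40.0%, 47.5%, 36.3% and 46.0% at day 12 (log2 -1.42, SE 0.34, edgeR adjusted p = 0.00712), and that call ended without the day 12 cKO specimen of batch 1 (0.0533). Coarse cluster 1 had 10.3% ± 2.86 at day 18 and 18.6% ± 4.85 at day 12 (log2 -0.88, SE 0.24, edgeR adjusted p = 0.0104), a call that ended without the cKO specimen of batch 1 of day 12 (0.0979) or of day 18 (0.0637). Coarse cluster 0 had 1.69% ± 1.02 at day 18 and 3.37% ± 2.74 at day 12 (edgeR adjusted p = 0.0361), a call that ended in 6 of the 8 fits, up to 0.269. The S share changed in 1 of 10 coarse clusters (10%, edgeR), cluster 1, with 12.3% ± 4.30 at day 18 and 17.4% ± 4.68 at day 12 (log2 -0.52, SE 0.12, adjusted p = 0.0377), and that call ended in 7 of the 8 fits with 1 specimen left out and with each pair as a block (0.136).

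**Figure D5:**
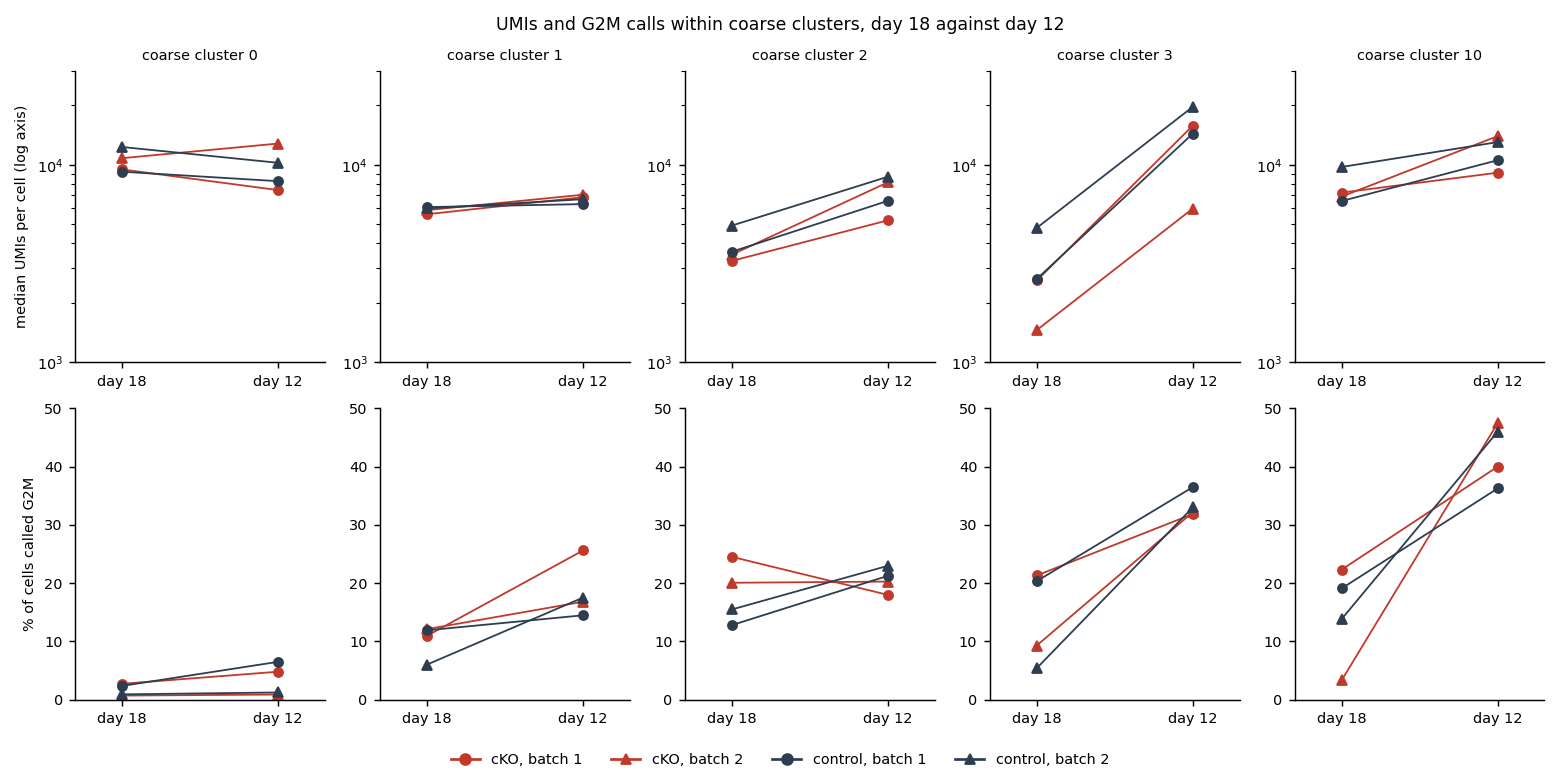
Median UMIs per cell (top, log axis) and % of cells called G2M (bottom) in 5 coarse clusters, with day 18 left and day 12 right; each line joins specimens of the same genotype (colour) and batch (marker). In coarse cluster 3 all 4 specimens lie between 1451 and 4785 UMIs at day 18 and between 5994 and 19659 at day 12, and in coarse cluster 10 the G2M share is 3.33% to 22.3% at day 18 and 36.3% to 47.5% at day 12.

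The G2M share was also compared within fine clusters and at a fixed fine make-up. Of 19 fine clusters tested, 1 had a lower G2M share at day 18 (5.26%, edgeR): cluster 22, the main part of coarse cluster 10, with 14.8% and 3.39% in the cKO specimens of batches 1 and 2 and 11.6% and 6.90% in the control specimens at day 18, against 21.5%, 38.1%, 20% and 31.6% at day 12 (log2 -1.35, SE 0.33, edgeR adjusted p = 0.00255). Its days did not overlap, though the call ended without the day 18 cKO specimen of batch 2 (0.103). The S share changed in 0 of 19 fine clusters (0%, edgeR; 2 unadjusted). Fine cluster 24, whose fall within coarse cluster 1 passed the test, was mostly G2M cells at both days, 73.5% ± 9.55 at day 18 and 71.7% ± 3.54 at day 12. Fine cluster 8 also made up less of coarse cluster 1 at day 18, 19.8% ± 2.09 against 35.1% ± 11.3, but did not pass (edgeR adjusted p = 0.0773). Re-weighted to the day 12 fine make-up, the G2M difference in coarse cluster 1 was -0.598 ± 3.44 percentage points, where the unweighted one was -8.35 ± 5.66 (SD over 4 pairs). In coarse cluster 3 it was -15.5 ± 9.91 re-weighted and -19.3 ± 7.49 unweighted, and in coarse cluster 10 -19.1 ± 12.6 and -27.8 ± 12.9, lower in 4 of 4 pairs each way. Over all cells it was -1.76 ± 1.65 re-weighted, lower in 3 of 4 pairs, and -5.41 ± 2.56 unweighted, lower in 4 of 4. Some fine clusters, such as cluster 24, themselves follow the phase call. Holding the make-up fixed takes out such differences by construction and does not locate their source.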

How the data were processed

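Dissected implantation-site tissue was digested, hashed, pooled and sequenced as droplet single-cell RNA libraries, per the labels' protocols. The submitters' processing notes list mm10 as the genome build and Seurat and Cell Ranger as tools, with versions not given in the sources used here. Per the file headers, the deposited annotation holds UMI and gene counts per cell, and the percent of UMIs from mitochondrial and ribosomal protein genes. It also holds a phase call and Louvain clusters. The counts are whole numbers and were used as given, and the headers do not state whether they were normalized. The embedding score values the authors deposited were not used. The authors filtered cells and assigned them to specimens before deposit, and doublets were not called again.

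Cells of repeat pools were added per specimen, and specimens were the replicates. Shares were tested with edgeR 4.0.16 (R 4.3.3; quasi-likelihood, library size all cells of the specimen, no composition factor) for clusters with a mean of at least 10 cells, with genotype and batch as terms. Medians in clusters with at least 20 cells in every specimen were tested with limma 3.58.1, and specimen-level values by exact permutation within pairs. DESeq2 1.42.0, limma on logit shares and the settings in the closing section were alternatives. Clusters named are those past an adjusted p of 0.05, the 5 largest at each resolution, and any past it in a difference term. The edgeR test of fine cluster shares and the limma test of specimen medians were tried on simulated data. Those simulations did not include the tests within coarse clusters, the phase tests, the difference terms or the re-weighting. The clusters, lists and comparisons were chosen with earlier results of these data known; the added batch 3 specimens, the fits of phase and depth within fine clusters and the re-weighting were chosen after seeing the data.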

Additional observations from a re-analysis of the deposited data

Results flagged for a closer look

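In 58 groups of 4 specimens of 1 day, a specimen stood apart in 4, where the gap to its nearest neighbour exceeded Dixon's 95% critical share of the group's range; chance alone gives about 1 in 20. Fine cluster 12 held 3.30% of the day 18 control specimen of batch 2, below the 3.79% to 3.83% of the other day 18 specimens. Fine cluster 13 held 10.5% of the day 12 cKO specimen of batch 2, above the 0.906% to 2.16% of the others of that day. Coarse cluster 3 held 2.13% of the same specimen, below 12.7% to 14.5% in the others. Coarse cluster 2 held 16.5% of the day 12 control specimen of batch 1, above 8.18% to 8.95% in the others.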

How the results depend on the processing

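The pairing of days by genotype and batch comes from the labels, and a replicate block for each pair called 12 fine clusters (against 15), 1 coarse cluster (against 2) and 0 coarse clusters for S calls (against 1); it changed no other count by over 1.5 times. The 15 fine calls numbered 7 with no covariates, 4 in batch 1 alone, 5 in batch 2 alone and 7 with the batch 3 day 12 specimens added. Other settings gave 10 to 17: TMM factors 11, DESeq2 15, limma 10, no minimum 17, cells of at least 500 genes 11 or 1000 UMIs 12, fine cluster 1 left out 12, all implantation-site specimens 12, the first or last pool of each batch 11. The 2 coarse calls numbered 4 with DESeq2, 1 with limma, with no covariates, with cells of at least 500 genes or 1000 UMIs, without fine cluster 1, in batch 1 alone and in the first pool of each batch, and 0 in batch 2 alone and with the batch 3 specimens added. Mitochondrial percent gave 2 calls, against 4, where every specimen needed 50 cells. Leaving out 1 specimen gave 5 to 18 fine and 1 to 5 coarse calls, 0 to 1 day-by-batch and 0 to 2 day-by-genotype calls among coarse clusters, 5 to 14 within coarse clusters, 0 to 1 for S and 1 to 4 for G2M in coarse clusters, 0 to 1 for G2M in fine clusters, 2 to 4 coarse and 4 to 10 fine for UMIs, 3 to 4 coarse and 3 to 7 fine for genes, 0 to 4 for mitochondrial and 2 to 6 for ribosomal percent. Leaving out 1 pair, the specimen-level difference of day 18 minus day 12 was -1559 to -111.7 UMIs, -351 to -145.8 genes, -0.269 to -0.106 percentage points mitochondrial, -6.27 to -4.58 for G2M and -0.964 to 0.759 for S, turning positive without the batch 2 control pair. The log2 difference of coarse cluster 3, -0.08, was 0.40 with TMM factors, 0.10 with limma, 0.90 in batch 2 alone, 0.049 in the last pool of each batch and 0.26 with the batch 3 specimens added. It was -0.65 to 0.32 with 1 specimen left out, above 0 without the day 12 cKO specimen of batch 1 (0.22), the day 12 control specimen of batch 2 (0.32) or the day 18 control specimen of batch 1 (0.31) or 2 (0.035). Of 1050 values of single clusters under these settings, 789 kept their direction and side of the threshold, 249 lost and 3 gained a call and 9 turned direction, all 9 of coarse cluster 3. For all these changes the cause was not tested. Counts are limited by 4 specimens a day, and shares rest on the authors' assignment of cells to specimens.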
